A study of Mus musculus with 4 samples.

Results

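Of the 23924 genes of the expression matrix, 64 are replication-dependent histone genes by their symbols: every symbol that begins with Hist1h, Hist2h, Hist3h or Hist4h, and the symbols H1f1 to H1f5, H2ac, H2bc, H3c and H4c followed by a number. They comprise 5 linker histone H1 genes, 18 H2A, 17 H2B, 12 H3 and 12 H4 genes. RefSeq lists Hist1h2al, counted here with H2A, as a transcribed pseudogene, and it stays in the counts and sums below. RNA-seq was performed on immortalized tail tip fibroblasts (TTFs) from littermates of the C57BL/6J-TgBAC8-2087 mouse line, with 2 libraries from transgenic Tg2087/+ cells (TG) and 2 from wildtype +/+ cells (WT). TG cells carry added sequence of the X-inactivation center (Xic), including Xist, at 1 place in an autosome, where Xist is driven by its native promoter. The cells of both genotypes are male, were immortalized with SV40 large T, which inactivates RB and p53, and became tetraploid, and RNA was selected for poly(A) tails according to the sample protocols. Whether replicate libraries stem from separate cultures or animals is not given in the sources used here, so all p-values measure the spread between these libraries, which may be technical, and the age of the mice is not given.

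Replication-dependent histone genes encode the bulk of the histones that package newly made DNA. They are transcribed in S phase, and their mRNAs are the metazoan mRNAs that end in a conserved stem-loop instead of a poly(A) tail. The stem-loop is bound by SLBP and the mRNA is cut just after it with the help of the U7 snRNP, whereas replication-independent variants such as H3.3 and H2A.Z come from ordinary polyadenylated mRNAs. Some members also give rise to polyadenylated forms in differentiated or transformed cells. A poly(A)-selected library therefore holds a small remainder of these transcripts, and the levels below are levels in such libraries.

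The stem-loop is the feature that sets these mRNAs apart, so it is shown for 6 of the 11 members that passed the test between genotypes. In the GENCODE M21 transcripts of the members, the 16-base word found after the stop codon of the most genes was a stem-loop present in 24 members, in which the first bases pair with the last. A match with at most 2 mismatches was found in 37 of the 64 members, compared with 158 of 55341 GENCODE genes (0.286%). The word was taken from the members, and the GENCODE genes include them, so a higher share among members was built in. Of the 27 members without a match, 15 have GENCODE models with fewer than 16 bases after the stop codon, so the place where the stem-loop would lie is not in them. The sequences below are from GENCODE transcripts (GRCm38), 5′ to 3′, with the 16 bases in capitals and the 5 bases on either side in lower case; these are 3′ untranslated exonic sequence. The capitals lie at chr13:23739512-23739527 for H1f2, chr13:23751572-23751587 for H2ac4, chr13:23747203-23747218 for H2bc3, chr13:23544932-23544947 for H3c7 and chr13:23531458-23531473 for H4c8 on the plus strand, and at chr13:23551291-23551306 on the minus strand for H4c6.
H1f2: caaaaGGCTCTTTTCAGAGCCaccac
H2ac4: acaaaGGCTCTTTTCAGAGCCaccca
H2bc3: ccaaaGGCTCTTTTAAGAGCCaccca
H3c7: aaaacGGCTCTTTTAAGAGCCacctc
H4c8: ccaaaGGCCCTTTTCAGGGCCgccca
H4c6: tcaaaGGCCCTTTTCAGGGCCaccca

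H1f2 and H2ac4 carry the common word itself, H2bc3 and H3c7 differ from it at 1 position, and H4c6 and H4c8 differ from it at 2 positions. The 16 bases of the 6 H4 genes with a match, H4c4 included, were the same in all of them. The GENCODE models of the other 4 members that passed, Hist1h2an, H2ac12, H2ac13 and H2ac10, end at most 2 bases after the stop codon. Of the members, 13 have a GENCODE transcript that runs over 300 bases past the stem-loop, among them H1f2 (840 bases), H1f4 (1153 bases) and H4c4 (770 bases). For H1f2 the length over which reads were counted, 725 bases, ends near the stem-loop, so reads further downstream do not enter its value.

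Members lay in runs on 2 chromosomes. The run on chr3 (chr3:96219885-96270192) held 10 members, and 3 runs on chr13 held 18 (chr13:21715711-21837530), 5 (chr13:22035122-22043658) and 28 members (chr13:23531044-23764412). The 3 members left were the pair H2bc1 and H2ac1 and, standing alone, the pseudogene Hist1h2al, also on chr13. In all, 13 pairs of neighbors were arranged head to head, 12 of them an H2A and an H2B gene with 163 to 280 bases between their starts. Promoters are shown for H1f2 and H2ac13, the members with the smallest adjusted p, for H4c6, which had the largest limma fold change on the log2(FPKM + 0.5) scale, and for H2ac12, the most abundant H2A member. They are RefSeq sequences (GRCm38.p6) of up to 250 bases before the start, cut at the head-to-head neighbor for H2ac12 and H2ac13, and lie at chr13:23738557-23738806 (plus strand), chr13:21716184-21716411 (plus), chr13:22035644-22035820 (minus) and chr13:23551669-23551918 (minus). Capitals mark the TATA, CCAAT, H1 box and octamer words, given with their letters after the sequences, on either strand.
H1f2: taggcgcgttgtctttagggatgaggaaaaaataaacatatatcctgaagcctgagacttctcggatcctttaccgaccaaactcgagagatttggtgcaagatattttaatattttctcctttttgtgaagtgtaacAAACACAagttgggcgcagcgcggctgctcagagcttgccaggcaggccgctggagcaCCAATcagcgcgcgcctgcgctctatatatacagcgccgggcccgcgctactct
H2ac13: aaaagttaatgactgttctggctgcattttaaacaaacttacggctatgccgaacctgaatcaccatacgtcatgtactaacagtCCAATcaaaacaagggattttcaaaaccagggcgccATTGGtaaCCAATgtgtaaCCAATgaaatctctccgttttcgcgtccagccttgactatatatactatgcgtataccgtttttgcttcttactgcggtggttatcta
H2ac12: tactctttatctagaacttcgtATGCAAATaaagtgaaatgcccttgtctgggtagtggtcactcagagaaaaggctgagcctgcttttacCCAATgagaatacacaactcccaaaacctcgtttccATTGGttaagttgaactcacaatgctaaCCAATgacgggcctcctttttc
H4c6: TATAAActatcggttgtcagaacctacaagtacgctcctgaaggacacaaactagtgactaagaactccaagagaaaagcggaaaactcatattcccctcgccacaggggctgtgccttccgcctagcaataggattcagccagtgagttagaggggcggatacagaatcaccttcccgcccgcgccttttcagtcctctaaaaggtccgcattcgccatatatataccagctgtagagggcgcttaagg

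RefSeq promoters were matched for 58 members. The same letters were searched on both strands of the 250 bases before the start in 27025 promoters, and none of the 4 words contains another. CCAAT was found in 48 of the 58 (82.8%), compared with 34.5% of all promoters, and in every matched H1, H2A and H2B promoter but only 3 of 11 H4 promoters. TATAAA was found in 28 of the 58 (48.3%), compared with 13% of all promoters. AAACACA, the H1 box, was found in 4 of the 5 H1 promoters, compared with 6.22% of all promoters. ATTTGCAT, a binding site of the octamer factor Oct-1 (Pou2f1), was found in 6 of 17 H2A and 6 of 15 H2B promoters, compared with 1.61% of all promoters, and in none of the H1, H3 and H4 promoters. The 250 bases of head-to-head neighbors overlap, so the same site of any of these words can count for both genes. Both genes of the pairs H2ac12 and H2bc12, H2ac8 and H2bc8, and H2ac1 and H2bc1 had ATTTGCAT. The H2A and H2B counts are therefore not separate observations.

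Library totals recovered from the FPKM values ranged from 9465712 to 14639946 reads, with WT 2 the deepest library. Xist was listed at 0 and 0.108 FPKM in the WT libraries and at 2.31 and 2.28 FPKM in the TG libraries, as the labels require. Of 10 fibroblast markers, Vim, Thy1, Col1a1 and Col1a2 were at 206.5 FPKM or more in every library, Lum was at 0 and Dcn at most 0.879 FPKM, and Col1a1 and Pdgfrb were lower in TG (adjusted p = 0.049 and 0.016, limma); their summed level was 4624 to 4910 FPKM in WT and 3944 to 4223 FPKM in TG. Krt5 and Krt14 (keratinocytes), Ptprc (blood), Myod1 (muscle) and Tyr (melanocytes) were at 0 in all libraries, and the endothelial markers summed to at most 0.567 FPKM. In all, 3 of 6 keratinocyte or epithelial markers and 3 of 4 each for blood, muscle and melanocytes were at 0. Of the rest, the blood marker Cd68 measured 8.95 and 12.1 FPKM in WT, compared with 5.12 and 11.4 FPKM in TG. Krt10 measured 1.40 to 2.45 FPKM, and Epcam, Cdh1, Des and Dct were at most 0.553 FPKM.

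Histone transcripts were scarce in all 4 libraries. In all, 53 members had at least 1 read in at least 1 library and 11 were at 0 in all. Over all members, 399 and 373 reads were recovered in WT 1 and WT 2, and 962 and 732 in TG 1 and TG 2. Scaled to the library total as RPM (reads-per-million), this was 42.2 (95% exact Poisson interval 38.1 to 46.5) in WT 1, 25.5 (23.0 to 28.2) in WT 2, 80.7 (75.7 to 85.9) in TG 1 and 66.2 (61.5 to 71.1) in TG 2. The TG libraries were thus both above the WT libraries beyond counting error, and the WT libraries also differed from each other beyond it. In bulk RNA, fewer cells in S phase and less histone RNA per cell cannot be told apart. Intervals cover counting error only, since the reads carry no molecular identifiers. Only H1f2 and H2bc18 had a mean of at least 10 FPKM over the 4 libraries, and 42.1% of the genes tested had a higher mean than H1f2. A tested member had a median of 36 reads over the 4 libraries together, compared with 1493 for all genes tested.

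The difference between genotypes was largest for H2A and H1 and smallest for H3 and H2B. H2A proteins, which form dimers with H2B at the flank of the nucleosome, had summed levels of 18.0 and 10.6 FPKM in WT, compared with 66.2 and 44.1 FPKM in TG (14.3 ± 5.22 and 55.1 ± 15.6, mean ± SD, n = 2 each). The TG mean was 3.85 times the WT mean, a log2 ratio of 1.95. H1, the linker histones that bind DNA between nucleosomes, had 11.96 and 9.14 FPKM in WT, compared with 28.8 and 24.9 FPKM in TG, a log2 ratio of 1.35. H4, which with H3 forms the tetramer at the core of the nucleosome, had 35.8 and 25.2 FPKM in WT, compared with 63.1 and 56.0 FPKM in TG, a log2 ratio of 0.97. In these 3 types the groups did not overlap. Whether the difference itself varied between types was not tested.

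For H2B the sums were 32.1 and 15.1 FPKM in WT, compared with 31.8 and 36.9 FPKM in TG, a log2 ratio of 0.54, and TG 1 lay below WT 1. For H3 they were 15.2 and 6.83 FPKM in WT, compared with 19.3 and 11.6 FPKM in TG, a log2 ratio of 0.49, and TG 2 lay below WT 1. The ratios of H2B and H3 were within the pooled SD of the log2 sums between replicates, 0.55 for H2B and 0.69 for H3. They were 0.098 and 0.024 without WT 2, and 1.19 and 1.18 without WT 1. In RPM, which are not divided by length, the H2B groups did not overlap (13.3 and 7.31 in WT, 16.7 and 16.5 in TG). H2A made up 15.9% of the summed FPKM of all members in each WT library and 31.6% and 25.4% in the TG libraries, whereas H2B went from 28.4% and 22.5% to 15.2% and 21.3%. Sums over members have no test here, and 2 against 2 libraries cannot give an exact two-sided permutation p below 0.333.

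**Figure D1:**
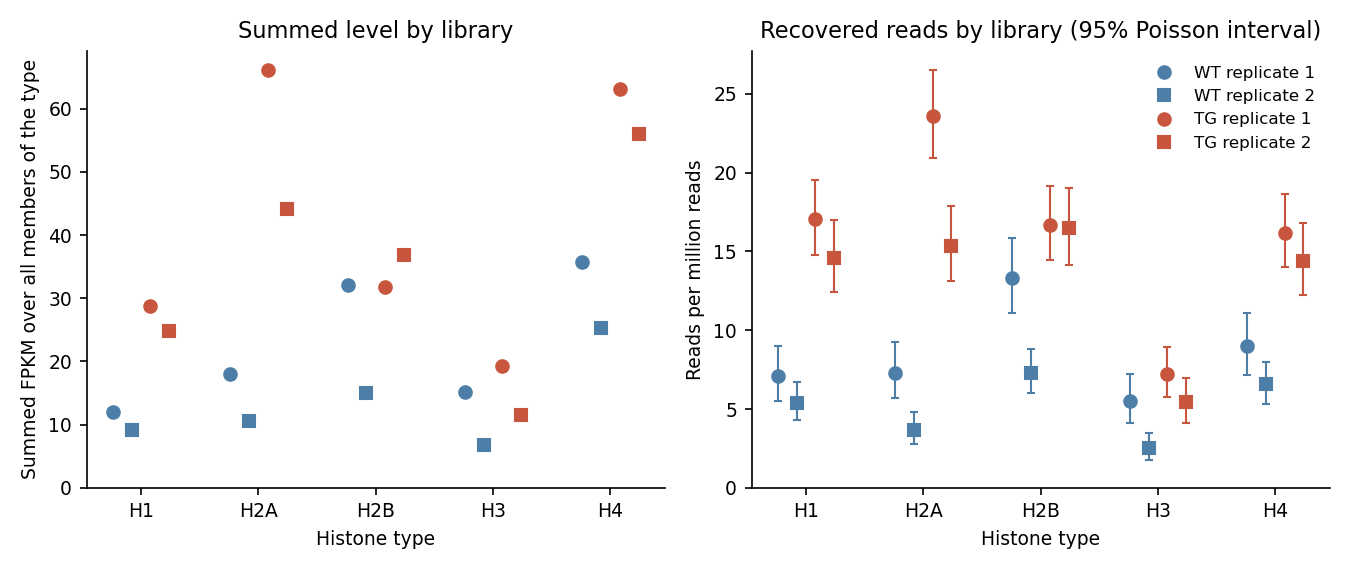
Left, summed FPKM over all members of each histone type in each library; right, recovered reads of the type as RPM with the 95% exact Poisson interval as bars; blue is WT, red is TG, circles are replicate 1 and squares replicate 2. Both TG libraries lie above both WT libraries for H1, H2A and H4 (H2A: 44.1 and 66.2 FPKM in TG, 10.6 and 18.0 in WT), while the groups overlap for H2B and H3 in FPKM.

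Genes were compared with limma on log2(FPKM + 0.5) over the 11524 genes with a mean of at least 0.5 FPKM, with Benjamini-Hochberg adjustment over all of them. This fit included 37 members. The filter acts on the mean over both genotypes, so a member low in WT could enter the fit through its TG values. H2bc3, H3c7, H4c6, H2bc15, H2ac8, H2bc8 and H2bc13 had WT means under 0.5 FPKM and entered this way. All of these had a fold change above 0, and H2bc3, H3c7 and H4c6 are among the calls below. No tested member entered through its WT values alone. The counts below are therefore in part set by the filter, and describe the tested members and not all 64. In this fit, 11 members (29.7% of those tested) were higher in TG at an adjusted p under 0.05 and 0 were lower, compared with 2.59% of all genes higher and 1.54% lower; with no adjustment, 17 members were higher at p under 0.05 (12.7% of all genes) and 0 were lower. When the adjusted p had to be under 0.01 and the log2 fold change 1 or more in size, H1f2 and H2ac13 were higher (0.607% of all genes) and 0 members lower. The fold change was above 0 for 30 of 37 members (57.5% of all genes), with a median log2 fold change of 0.95, compared with 0.07 over all genes tested. Of all genes tested, 4.28% had a fold change of at least that median. Both TG libraries were above both WT libraries for 17 of 37 members (30.2% of all genes) and below them for 0 (20.3% of all genes).

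The 11 calls were not kept in several other fits. With limma voom on the recovered reads, which weights values by their reads, only H1f2 passed (adjusted p = 0.0288, log2 fold change 1.44; 3.46% of all genes were higher), although the members' median log2 fold change was 1.55. Without WT 2, the library in which members had the fewest reads relative to depth, 0 members passed in limma (0.399% of all genes), 15 were higher at an unadjusted p under 0.05 and the median was 0.69. Without WT 1, 3 passed (H1f2, H2ac12 and H4c4; 0.746% of all genes), 22 were higher at an unadjusted p under 0.05 and the median was 1.29. Of the 16 members with reads that did not enter the fit, 8 had a higher mean in TG and 8 in WT. Over all 53 members with reads, the groups did not overlap for 19, all with TG above WT (35.8%, compared with 25.5% of the 15530 genes with reads).

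**Figure D2:**
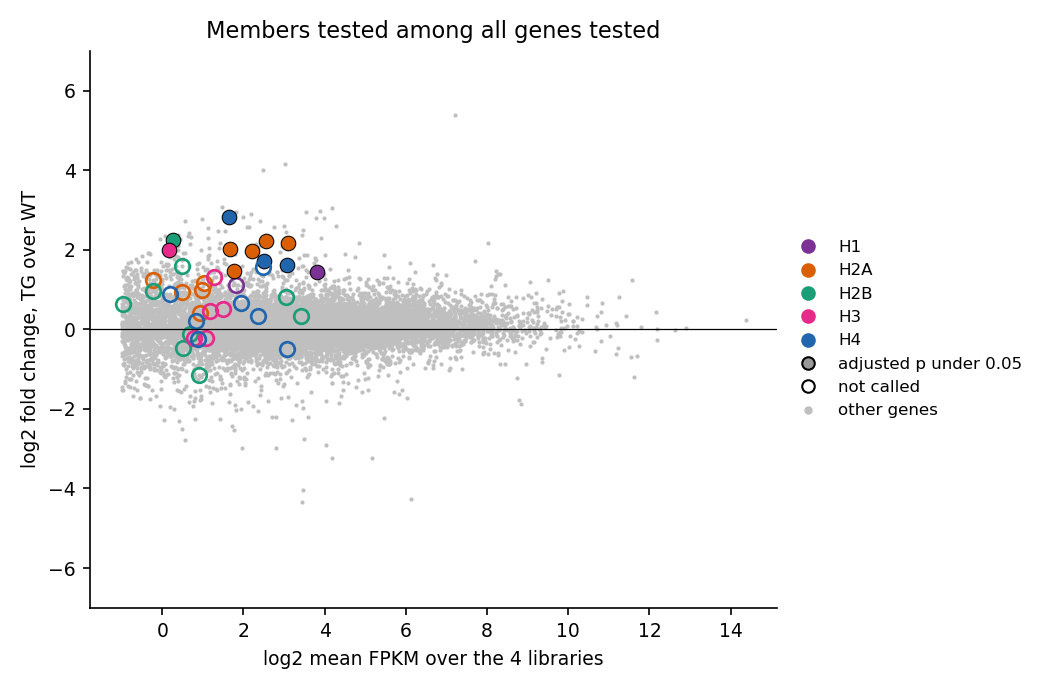
Log2 fold change of TG over WT against the log2 mean FPKM over the 4 libraries; gray points are all genes tested, colored circles the 37 members tested, by type, filled where the adjusted p (limma) was under 0.05. The 11 filled circles all lie above 0, from a log2 fold change of 1.44 (H1f2) to 2.83 (H4c6).

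Of the H1 genes, H1f2 and H1f4 entered the fit. H1f2, a major somatic linker histone (H1.2), lies at chr13:23738807-23739531 (GRCm38, plus strand) and was the most abundant member. It measured 7.89 and 6.88 FPKM in WT 1 and WT 2 and 20.7 and 20.9 FPKM in TG 1 and TG 2, from 43, 58, 142 and 133 reads. Both TG libraries were higher, by 2.81-fold in the mean (log2 fold change 1.44 ± 0.20 SE, adjusted p = 0.0042, limma). H1f4, which encodes H1.4, measured 2.34 and 1.73 FPKM in WT, compared with 6.09 and 3.998 FPKM in TG; the groups did not overlap, with a log2 fold change of 1.12 ± 0.30 SE and an adjusted p of 0.066. H1f2 alone held 75.4% of the summed H1 level, and without it the H1 log2 ratio was 0.93. The linker histone genes H1f3, H1f5 and H1f1 had at most 10 reads in any library, and H1f1 had reads in WT 1 only (7 reads).

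H2A showed the largest number of calls, 5 of the 10 members tested, and all 10 had a fold change above 0. H2ac12 (chr13:22035122-22035643, minus strand) measured 4.81 and 1.28 FPKM in WT, compared with 18.9 and 9.45 FPKM in TG, from 17, 7, 84 and 39 reads (log2 fold change 2.17 ± 0.46 SE, adjusted p = 0.028, limma). Hist1h2an (chr13:21786774-21787248, minus strand) measured 1.94 and 1.26 FPKM in WT, compared with 14.4 and 5.82 FPKM in TG, from 6, 6, 56 and 21 reads (log2 fold change 2.23 ± 0.38 SE, adjusted p = 0.011). In both genes TG 1 was well above TG 2, and both TG libraries were above both WT libraries. H2ac13 (chr13:21716412-21716859, plus strand) measured 1.77 and 1.37 FPKM in WT, compared with 9.26 and 6.05 FPKM in TG, from 5, 6, 33 and 20 reads (log2 fold change 1.96 ± 0.29 SE, adjusted p = 0.0056). H2ac10 measured 2.38 and 0.962 FPKM in WT, compared with 4.96 and 5.35 FPKM in TG (log2 fold change 1.46, adjusted p = 0.042). H2ac4 measured 0.594 and 1.15 FPKM in WT, compared with 3.06 and 7.87 FPKM in TG (log2 fold change 2.02, adjusted p = 0.025), and here TG 2 was the higher TG library. The other 5 tested H2A genes, H2ac7, H2ac11, H2ac15, H2ac1 and H2ac8, had log2 fold changes of 0.41 to 1.24 and did not pass.

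Several of the H2A genes share long stretches of sequence with other histone genes. Of the 100-base windows of their GENCODE transcripts, 87.9% for H2ac12, 88.4% for H2ac13, 83.3% for Hist1h2an and 65.3% for H2ac10 also occurred in another, non-overlapping histone gene. How reads with several matches were counted is not given in the sources used here, so the split among these genes is uncertain. If each read was counted once, the summed reads of H2A (69 and 54 in WT, 281 and 170 in TG) do not depend on how reads were divided within the type. If reads with several matches were dropped or counted more than once, these sums depend on that too. The summed FPKM depends on the division in any case, since each gene is divided by its own length. The 5 H2A calls may therefore not be independent of each other. Of the other called members, H2ac4 shared 52.4% of its windows, H4c8 38.5%, H3c7 34.25%, H2bc3 32.8%, H4c6 18.2%, H1f2 5.06% and H4c4 0%.

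Among H2B genes, the 2 most abundant did not pass the test and the 1 that passed was near the detection limit. H2bc18 (chr3:96269700-96270192, plus strand) measured 11.98 and 7.35 FPKM in WT, compared with 12.2 and 11.6 FPKM in TG; WT 1 lay within the TG range, and the log2 fold change was 0.32 ± 0.25 SE (adjusted p = 0.53, limma). H2bc4 measured 7.27 and 4.37 FPKM in WT, compared with 13.8 and 7.67 FPKM in TG, where TG 2 lay just above WT 1 (log2 fold change 0.81 ± 0.31 SE, adjusted p = 0.18). The gene that passed was H2bc3, which had 0 and 1 reads in WT, compared with 9 and 9 reads in TG. The ratio of its RPM, TG over WT, was 18.9 with an exact 95% interval from counting of 2.98 to 786.5 (adjusted p = 0.014, limma). Of the 9 H2B genes tested 6 had a fold change above 0, and H2bc14 was the lowest at −1.14 (adjusted p = 0.41).

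Of the 12 head-to-head pairs of H2A and H2B genes, the H2A gene had the higher mean FPKM in 10 and the H2B gene in 1, and both were at 0 in 1. Where both were read, the means were over 3 times apart in 4 pairs and within 3 times in 5; these differences were not tested. The 4 pairs that were over 3 times apart follow. H2ac12 and H2bc12 start 177 bases apart on opposite strands; H2ac12 had 17, 7, 84 and 39 reads in WT 1, WT 2, TG 1 and TG 2, and H2bc12 had 1 read, in TG 1. Hist1h2an had 6, 6, 56 and 21 reads and its neighbor Hist1h2bp had 3, all in WT 1. In the pair H2ac6 and H2bc4 the order was the other way around: H2bc4 had 43, 40, 103 and 53 reads, and H2ac6 had 1, 0, 3 and 0. H2bc13 had 3, 0, 3 and 6 reads beside the 5, 6, 33 and 20 of H2ac13. H2bc12 shared 70.8% of its windows with other histone genes, so its low count carries the same uncertainty. The limit of 3 times was chosen after the values were seen.

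**Figure D3:**
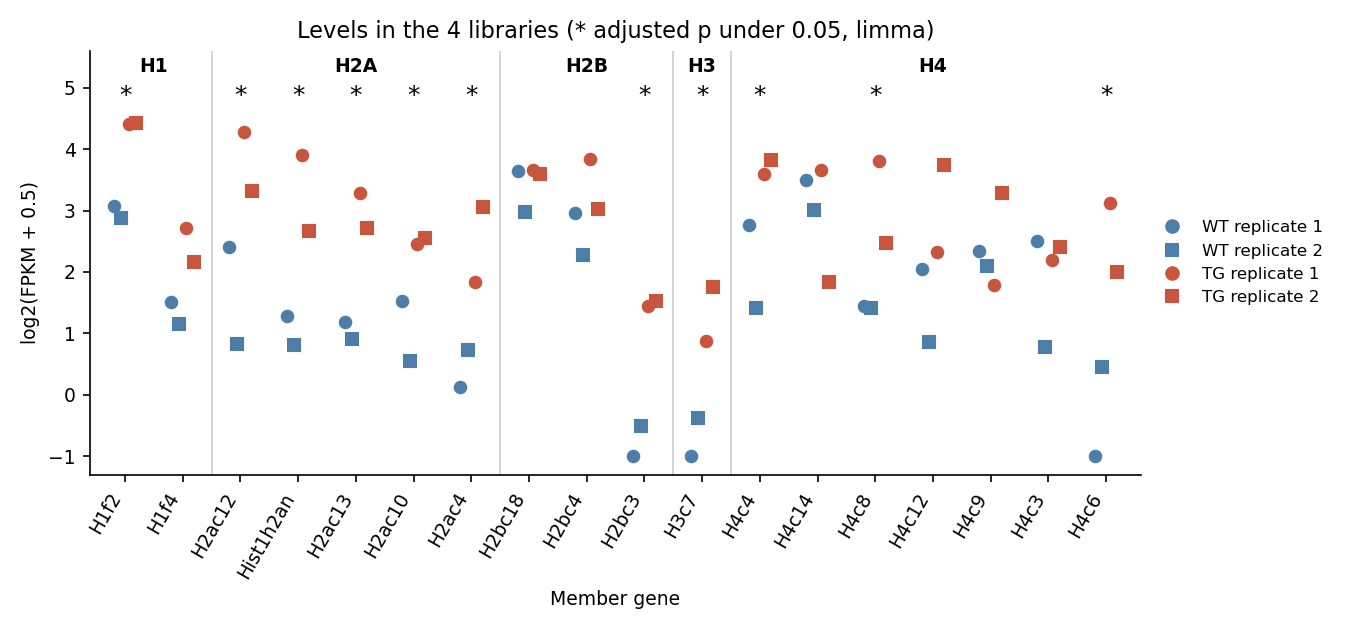
Level in each library, as log2(FPKM + 0.5), of the 16 most abundant members and the 2 further members with an adjusted p under 0.05, grouped by histone type; an asterisk marks an adjusted p under 0.05 (limma), blue is WT, red is TG, circles are replicate 1 and squares replicate 2. For H1f2 the TG replicates nearly coincide (20.7 and 20.9 FPKM in TG), whereas TG 1 and TG 2 lie apart for H4c14, H4c12 and H4c8, and a value of −1 is a listed 0.

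Of the 6 H3 genes tested, H3c7 passed the test. It had 0 and 3 reads in WT, compared with 12 and 24 reads in TG, or 0 and 0.272 FPKM against 1.34 and 2.88 FPKM in TG (adjusted p = 0.038, limma). The ratio of its RPM was 12.6 with an exact 95% interval from counting of 3.98 to 63.9. The other 5, H3c3, H3c13, H3c4, H3c8 and H3c2, had log2 fold changes between −0.23 and 1.32 and did not pass. H3c8 had 22 reads in TG 1 and 0 in TG 2, and H3c4 had 18 in WT 1 and 0 in WT 2, so in these genes replicates of a genotype differed more than the genotypes did.

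H4 is a single protein encoded by many genes, and 3 of its 10 tested members passed. H4c4 measured 6.26 and 2.16 FPKM in WT, compared with 11.6 and 13.6 FPKM in TG, from 15, 8, 35 and 38 reads (log2 fold change 1.62 ± 0.37 SE, adjusted p = 0.036, limma). H4c8 measured 2.22 and 2.15 FPKM in WT, compared with 13.5 and 5.06 FPKM in TG (log2 fold change 1.72 ± 0.38 SE, adjusted p = 0.032). In both genes the groups did not overlap, though the TG libraries of H4c8 differed by more than the distance of TG 2 from WT. H4c6 (chr13:23551286-23551668, minus strand) had 0 and 3 reads in WT, compared with 23 and 9 reads in TG, with a ratio of RPM of 11.2 and an exact 95% interval from counting of 3.50 to 57.1 (adjusted p = 0.014).

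The 4 other abundant H4 genes did not pass. H4c12 measured 3.66 and 1.31 FPKM in WT, compared with 4.52 and 12.9 FPKM in TG (log2 fold change 1.58, adjusted p = 0.095). H4c14, which lies at chr3:96262934-96263317 (minus strand), measured 10.8 and 7.56 FPKM in WT, compared with 12.1 and 3.08 FPKM in TG, so the highest and the lowest value were both TG libraries (log2 fold change −0.50, adjusted p = 0.61). H4c9 measured 4.58 and 3.77 FPKM in WT, compared with 2.97 and 9.25 FPKM in TG, and H4c3 measured 5.14 and 1.21 FPKM in WT, compared with 4.08 and 4.80 FPKM in TG; the groups overlapped in both. TG 1 was above TG 2 in H4c14 and below it in H4c9.

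By location, all 11 called members lay on chr13: 8 of the 21 tested in the largest run, 1 of 4 and 2 of 8 in the others. None of the 3 tested members of the chr3 run (H4c14, H2bc18 and H3c13) passed. The reads of the chr3 run were 73 and 78 in WT and 128 and 71 in TG, and those of the largest chr13 run were 227 and 215 in WT and 580 and 449 in TG. A difference between the runs was not tested. Of the members with a GENCODE transcript over 300 bases past the stem-loop, 6 entered the fit, 3 passed and all 6 had a fold change above 0, with a median log2 fold change of 1.28; of those whose transcripts end nearer to it, 14 entered the fit, 4 passed and 9 were above 0, with a median of 0.81; of those with no stem-loop found, 17 entered the fit, 4 passed and 15 were above 0, with a median of 0.93. Differences between these classes were not tested.

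The 11 members at 0 were H2ac18, H2ac19, H2ac21, Hist1h2ap, H2bc1, Hist1h2bq, Hist1h2br, H3c11, H3c14, H3c15 and Hist1h4m. Of these, 8 shared at least 50% of their 100-base windows with another histone gene, with a median of 86.4% over the 11, compared with 16 of the 53 members with reads, whose median was 31.8%. H2ac18 and H2ac19, a duplicated H2A pair on chr3, shared 88.1% and 100%. A value of 0 in such a gene says that no read was assigned to it, and whether its transcripts were present was not tested. H2bc1 and its neighbor H2ac1, known as testis histones, shared less (27.4% and 0%), and H2bc1 was at 0 while H2ac1 had 6 and 0 reads in WT, compared with 11 and 3 in TG.

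Replication-independent histone variants were together far more abundant, with a summed level of 1378 to 1904 FPKM per library, and did not pass the test. The lowest of them, Macroh2a2, lay at 21.3 and 20.4 FPKM in TG, near H1f2 (20.7 and 20.9 FPKM). All 11 listed variants were tested and 0 passed in either direction in limma (2 higher and 1 lower at an unadjusted p under 0.05; with voom Cenpa passed as higher and Macroh2a2 as lower), with a median log2 fold change of 0.17. H3f3b, which encodes H3.3, measured 693.3 and 483.7 FPKM in WT, compared with 791.0 and 944.3 FPKM in TG (log2 fold change 0.58, adjusted p = 0.18). H2ax, an H2A variant of the DNA damage response, measured 194.5 and 226.1 FPKM in WT, compared with 220.8 and 202.1 FPKM in TG (log2 fold change 0.01). H1f0, the linker histone of differentiated cells, measured 210.1 and 238.5 FPKM in WT, compared with 220.9 and 224.7 FPKM in TG. The summed level of the 64 members, 66.9 to 209.2 FPKM, was thus below that of H1f0 alone in each library.

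None of the 16 tested genes of histone mRNA transcription and 3′ end processing passed in either direction in limma, and 0 did at an unadjusted p under 0.05 or with voom. Slbp, the stem-loop binding protein, measured 85.2 and 84.9 FPKM in WT, compared with 84.9 and 71.2 FPKM in TG (log2 fold change −0.13, adjusted p = 0.74, limma). Npat, the coactivator of histone gene transcription, differed by 0.23 on the log2 scale, and Casp8ap2, which encodes FLASH of the histone locus body, 0.30. Of the 16 histone chaperones, 0 passed in limma and 2 were higher at an unadjusted p under 0.05; the H3-H4 chaperone Asf1b was nearest to the threshold with 73.4 and 51.2 FPKM in WT, compared with 118.3 and 101.4 FPKM in TG (adjusted p = 0.053 in limma and 0.0094 with voom).

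Of 22 genes of S phase and proliferation, the median log2 fold change was 0.07, 0 passed as lower and 1 passed as higher (2.59% of all genes). This was Pcna, the sliding clamp of the DNA polymerases, with 185.2 and 151.7 FPKM in WT, compared with 492.4 and 372.8 FPKM in TG (log2 fold change 1.35 ± 0.20 SE, adjusted p = 0.0056, limma). For Tk1, thymidine kinase, the log2 fold change was 0.76 (adjusted p = 0.064), and for Cdt1 it was 0.54 (adjusted p = 0.13, limma). At an unadjusted p under 0.05 in limma, 3 of the list, Pcna, Tk1 and Cdt1, were higher (12.7% of all genes) and 0 were lower. Mki67, a marker of cycling cells, measured 32.4 and 45.5 FPKM in WT, compared with 42.6 and 34.6 FPKM in TG, so the groups overlapped. With voom, Pcna and Tk1 passed as higher (adjusted p = 1e-05 and 0.023).

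Some other RNAs without a poly(A) tail were also higher in TG. Of 17 listed, 6 were at 0, 10 were tested, 3 passed as higher (2.59% of all genes) and 0 as lower, with 8 of 10 above 0 and a median log2 fold change of 1.35. Part of this tally rests on few reads. Of those above 0, Rnu3a had 1 read, in TG 2, and Snora74a had 10, all in TG 1. Both therefore entered the fit through TG alone. Terc had 0 and 3 reads in WT, compared with 0 and 8 in TG. Snora23, which was below 0, had 0 and 5 reads in WT, compared with 2 and 0 in TG. At an unadjusted p under 0.05, 4 were higher and 1, Snord17, was lower (3 and 11 reads in WT, 5 and 0 in TG, log2 fold change −2.04, adjusted p = 0.23, limma). Rmrp, the RNA of RNase MRP, measured 19.3 and 14.1 FPKM in WT, compared with 51.3 and 31.6 FPKM in TG (log2 fold change 1.26, adjusted p = 0.023, limma). Rpph1, the RNA of RNase P, measured 42.6 and 31.8 FPKM in WT, compared with 160.6 and 63.7 FPKM in TG (log2 fold change 1.45, adjusted p = 0.046). The small nucleolar RNA Snora81 measured 21.1 and 27.3 FPKM in WT, compared with 72.7 and 72.3 FPKM in TG (log2 fold change 1.57, adjusted p = 0.0015), from 3, 6, 13 and 12 reads. With voom 1 of the list passed, Rpph1 (adjusted p = 0.023). Both TG libraries were above both WT libraries for 4 of the 10 tested (30.2% of all genes), among them Rmrp, Rpph1 and Snora81, and below them for 0 (20.3% of all genes). The summed level of the list was 99.7 and 166.5 FPKM in WT, compared with 676.9 and 354.8 FPKM in TG. Snora78 held a large share of it with 0 and 68.3 FPKM in WT, compared with 356.4 and 169.5 FPKM in TG (adjusted p = 0.089, limma). These values came from 0, 8, 34 and 15 reads, so this part of the sum rests on few reads divided by a short length. The share of RNA without a poly(A) tail that each library kept and the level of histone mRNA in the cells cannot be told apart in these data, and the part of the former in the histone differences was not tested.

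**Figure D4:**
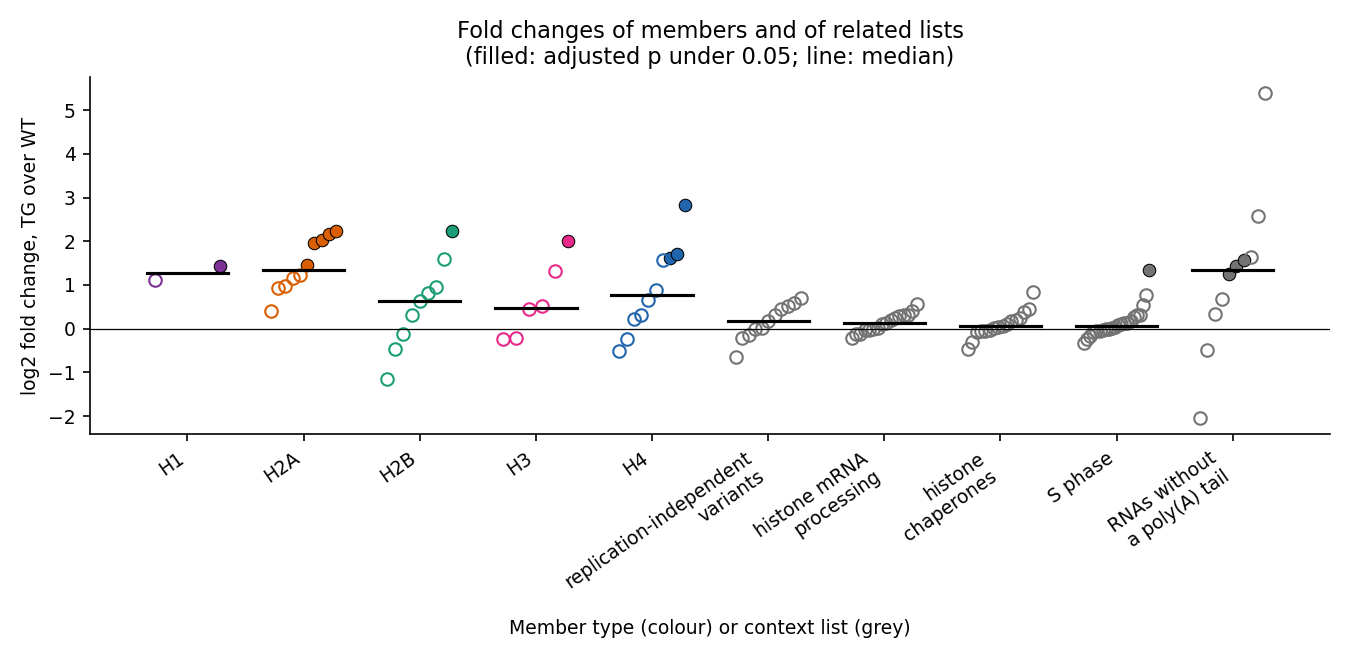
Log2 fold change of TG over WT of each tested member, by histone type in color, and of each tested gene of 5 related lists in gray; filled circles have an adjusted p under 0.05 (limma) and lines are medians. The medians of H1, H2A and the RNAs without a poly(A) tail lie at 1.28, 1.35 and 1.35, while those of the variants, the processing factors, the chaperones and the S phase genes lie between 0.06 and 0.17. Several of the RNAs without a poly(A) tail had few reads, among them Rnu3a with 1 read.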

How the data were processed

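The libraries were poly(A)-selected, strand-specific and paired-end. Per the study's methods, the authors used Rsubread with mm10 for alignment and gene counts, which they turned into FPKM, and the deposited FPKM matrix, with 1 column per library, was the only file. Strand setting and treatment of reads with several matches are not given in the sources used here. Whole reads (single or paired, not stated) were recovered from the FPKM values and their ratios between libraries, for 15528 of 15530 genes above 0 (tolerance 0.0001). For 1082 genes the annotated length set the common factor. Counts of genes with reads in only 1 library have no such ratio and rest largely on that length. The sums came to 100.8% to 101.1% of the library totals, so some genes carry a wrong common factor, and how many is not known.

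TG was compared with WT by limma 3.58.1 in R 4.3.3 (variance trend) on log2(FPKM + 0.5), n = 2 each, with Benjamini-Hochberg adjustment over 11524 genes with a mean of at least 0.5 FPKM; fold changes are on that scale, which understates those of low genes. The test was checked on simulated data. Members and lists were chosen with earlier results of these data known. Values are given for the 16 members with the highest mean FPKM and each with an adjusted p under 0.05; other members are named within a count, by location or after their values were seen. Sequences came from GENCODE M21 and RefSeq (GRCm38.p6), and sums and intervals were computed with scipy in Python.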

Additional observations from a re-analysis of the deposited data

How the results depend on the processing

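Members higher in TG at an adjusted p under 0.05 numbered 11 and stayed between 9 and 11 with a pseudocount of 1 or 0.1, a filter at a mean of 1 FPKM, upper-quartile scaling and quantile normalization. They numbered 0 of 53 tested with no filter on low values, where 17 were higher at an unadjusted p under 0.05 and 22 of 15530 genes were called higher, 4 without a variance trend, 5 with the replicate block and 1 with voom on the recovered reads, where 7 were higher at an unadjusted p under 0.05. Of all 11524 genes, 298 were higher in limma as reported, 153 without a variance trend, 114 with the replicate block and 399 with voom. The members past an adjusted p of 0.01 and a log2 fold change of 1 numbered 2, and 0 with no filter, without a variance trend, with the replicate block and with voom. The cause was not tested. All members called higher under these settings were among the 11. Leaving out 1 library gave 0 to 9 members higher (0 without WT 2, 3 without WT 1, and 9 without TG 1 and 8 without TG 2, of which 7 each were among the 11; of all genes 46, 86, 170 and 232 in the same order), 0 to 4 past the stricter thresholds and 0 to 2 lower (H4c14 and H3c8 without TG 1, H2bc14 without TG 2).

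The members' median log2 fold change was 0.95, and it was 1.48 with a pseudocount of 0.1, 0.58 with no filter, 1.55 with voom, and 0.69 to 1.29 when 1 library was left out. The log2 ratios of summed FPKM ranged, with 1 library left out, from 1.17 to 1.55 for H1, 1.62 to 2.38 for H2A, 0.098 to 1.19 for H2B, 0.024 to 1.18 for H3 and 0.74 to 1.24 for H4, and that of H1 was 0.93 without H1f2. The other alternatives for the sums moved them by less than the SD between replicates. The fold change changed sign for H2bc18 (−0.012) and H4c3 (−0.20) without WT 2, and for H4c14 (0.41) and H4c9 (−0.42) without TG 2; with 1 library left out, it reached 0.66 for H2bc18, 1.53 for H4c3, −1.41 for H4c14 and 1.07 for H4c9.

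Same-numbered libraries did not deviate together (correlation −0.028 over genes), and nothing in the labels ties a number to a litter or day, so the replicate block is given as an alternative only. A tested member had a median of 36 reads in the 4 libraries together; what size of difference this depth can show was not tested.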

Other observations

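Some histone genes lie outside the symbols taken and were singled out after their values were seen. H4f16, an H4 gene, had 66 and 6 reads in WT, compared with 66 and 60 in TG (log2 fold change 1.003, adjusted p = 0.44, limma), so WT 2 again held the fewest reads although it was the deepest library. H2aw had 176 and 220 reads in WT, compared with 172 and 104 in TG (log2 fold change −0.49, adjusted p = 0.31, limma). It measured 12.9 and 10.5 FPKM in WT, compared with 10.0 and 6.55 FPKM in TG, so both TG libraries lay below both WT libraries. Its mean of 10.0 FPKM was above that of H2ac12 (8.61 FPKM), the most abundant H2A member, and it is not part of the H2A sums and counts given above. Macroh2a2, which encodes macroH2A2, measured 33.9 and 32.4 FPKM in WT, compared with 21.3 and 20.4 FPKM in TG, with both TG libraries below both WT libraries, and did not pass in limma (log2 fold change −0.66, adjusted p = 0.071), though it did with voom (adjusted p = 0.031).

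Hist1h2al, a transcribed pseudogene in RefSeq, stands apart from the other members on chr13, from position 51200084 to 51203066 (GRCm38). It had 10 and 0 reads in WT, compared with 6 and 1 in TG, and these are part of the H2A sums. H2bc6, which spans positions 23583670 to 23621124 on chr13, had 1 and 5 reads in WT, compared with 8 and 17 in TG. H3c10 had 6 reads in WT 2 and 0 in the other libraries. These genes did not enter the test and were also chosen after their values were seen.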
